A study of Mus musculus with 4 samples.

Results

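Fetal testis germ cells were compared with the other cells of the fetal testis at 15.5 days post coitum (dpc), with 1 RNA library on each side. All 20299 genes listed for the series entered the comparison, and 12629 of them reached a signal of 5 per 1000000 in at least 1 of the 2 testis libraries. The mice were offspring of CF1 females and TgOG2 males, whose transgene places enhanced green fluorescent protein (EGFP) under the Oct4 promoter. GFP-positive cells were collected by flow sorting as germ cells and GFP-negative gonadal cells as somatic cells. Ovary germ and ovary somatic cells of the same cross and age, sorted in the same way, made up the other 2 of the 4 libraries. Total RNA was depleted of ribosomal RNA and sequenced as strand-specific paired-end libraries. The sorted fractions were untreated and carried no further allele or agent named in the labels, and the labels do not give how many fetuses were pooled. The reporter follows the promoter of Pou5f1 (Oct4), so the level of Pou5f1 belongs to the sort and is not a separate finding.

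Male germ cells of the mouse stop dividing in fetal life and are then called prospermatogonia. In this arrested state they re-establish DNA methylation across the genome, load a PIWI protein and small RNA system (piRNAs) that acts on transposons, and hold off meiosis, which female germ cells enter at the same age. Around them, Sertoli cells form the cords and secrete anti-Müllerian hormone, fetal Leydig cells make androgens, and peritubular, stromal, endothelial and blood cells fill the space between the cords.

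The deposited values are a read signal per gene, and here each value is given as signal per 1000000 of its library (SPM). The libraries held an estimated 24.9 M fragments (testis germ), 17.6 M (testis somatic), 17.5 M (ovary germ) and 24.2 M (ovary somatic), where M stands for 1000000. A gene was called higher in a library at 5 SPM or more there and at least 4-fold the other library. For calls and counts of 100-fold genes, any lower value under a floor of 3 fragments was raised to it. The floor was worth 0.1205 SPM in testis germ and 0.171 SPM in testis somatic cells. In the fold values of named genes, only a value listed at 0 was replaced by the floor. Log2 ratios are germ over somatic on the log2(SPM + 0.5) scale, which understates the difference of low genes. A gene that reached 5 SPM only in the fraction where it was high was bound to lean that way, so counts over tested members are descriptions. With 1 library per group there is no replicate error and no test, so the intervals beside fold values are 95% counting intervals of the 2 libraries and not of the cell types. In sorted bulk fractions, fewer cells of a type and less RNA per cell cannot be told apart.

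The labels fitted the markers of both fractions. Ddx4, an RNA helicase of germ cells (mm9 chr13:113388540-113442518), read 564 SPM in testis germ, 3.60 in testis somatic, 366 in ovary germ and 0.483 in ovary somatic cells, and was 157-fold higher in germ than somatic cells of the testis (interval 123 to 205). Dnmt3l, the catalytically inactive cofactor of de novo DNA methylation (chr10:77505031-77526360), read 455, 3.88, 0.179 and 0 SPM in the same order, 117-fold higher in testis germ cells (92.7 to 152). Both germ markers were high in the testis germ library, but Ddx4 was shared with the ovary germ cells and Dnmt3l was not. Amh, which encodes anti-Müllerian hormone (chr10:80267992-80270393), read 9.30, 258, 1.14 and 0.393 SPM, 27.7-fold higher in testis somatic cells (24.3 to 31.7). Col1a2, a type I collagen chain of stromal cells (chr6:4455696-4491543), read 46.7, 5278, 8.40 and 1624 SPM, 113-fold higher in testis somatic cells (107 to 119.7). Amh was therefore high in 1 library of the 4, and Col1a2 in both somatic libraries.

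Markers of the opposite fraction stood at low levels for the germ, Sertoli, Leydig, stromal and erythroid sets. The 6 germ markers summed to 28.2 SPM in testis somatic cells, 0.584% of their sum in germ cells. They were Ddx4, Dazl, Dnd1, Stk31, Mael and Pou5f1, and the level of Pou5f1 belongs to the sort. In the other direction, Sertoli markers in the germ library stood at 4.101% of their somatic sum, Leydig markers at 8.77%, stromal and peritubular markers at 1.46% and erythroid markers at 1.09%. Sums are weighted to the most abundant members. Single members ranged from 2.79% to 16.8% (Sertoli), 5.31% to 29.7% (Leydig), 0.885% to 3.23% (stromal and peritubular) and 0.5198% to 9.19% (erythroid). Endothelial markers (35.0%), leukocyte markers (21.9%), pregranulosa markers (28.7%) and mesonephric duct markers (52.7%) were low in both testis libraries, with sums of at most 168 SPM. Their members went both ways: 2 of 5 endothelial, 2 of 5 leukocyte, 2 of 4 pregranulosa and 4 of 6 mesonephric duct markers were higher in germ cells. Ptprc and Foxl2 were listed at 0 in germ cells and Lhx1 in somatic cells.

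**Figure D1:**
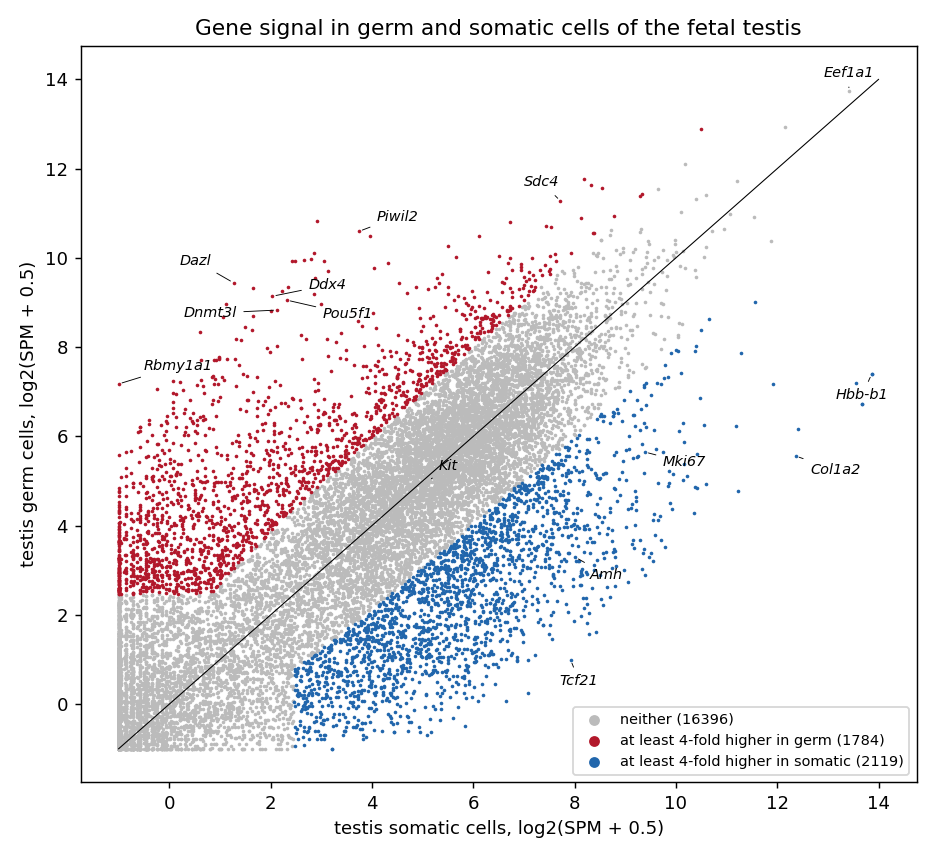
Signal of each gene in testis somatic cells (x axis) against testis germ cells (y axis), both as log2(SPM + 0.5), 1 library each. Each point is a gene and coloured points passed the size rule: 1784 genes lay above it on the germ side and 2119 on the somatic side, with Ddx4, Dnmt3l, Col1a2 and Amh among those far from the diagonal.

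Of the genes tested, 1784 were higher in germ cells (14.1%) and 2119 were higher in somatic cells (16.8%), and 8726 (69.1%) were neither. These shares are the background for the list counts below, and the lists were chosen with earlier results of these data known. The median log2 ratio over all tested genes was 0.03. Very large differences were mostly on the germ side, where 143 genes differed by 100-fold or more, against 29 on the somatic side. In all, 123 genes called in germ cells were listed at 0 in somatic cells, against 2 in the opposite case. The germ library was the deeper (24.9 M against 17.6 M fragments) and listed 1942 genes at 0, against 4333. As sums, germ markers stood at 0.584% in the somatic library, and Sertoli, Leydig, stromal and erythroid markers at 1.09% to 8.77% in the germ library. The part of these differences between the libraries in the uneven numbers was not tested. Genes called higher in germ cells carried 22.5% of the germ library's signal and 2.85% of the somatic library's. Those called higher in somatic cells carried 33.1% of the somatic signal and 2.55% of the germ signal.

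The largest ratio at 20 SPM or more was that of Rbmy1a1, a Y-linked RNA-binding protein gene of a multicopy family, which read 144 SPM in testis germ cells and 0 in the other 3 libraries, at least 846-fold higher. Next came Dazl, an RNA-binding translation regulator of germ cells, at 695 against 1.91 SPM (364-fold, 257 to 519). Stk31, a tudor domain kinase gene, read 1809 against 7.03 SPM (257-fold, 215 to 308). The remaining genes among the first 12 were the piRNA factors Asz1 (503 against 1.67 SPM) and Mov10l1 (1110.0 against 6.76), the transposon silencing gene Morc1 (998 against 5.82), the let-7 regulator Lin28a (325 against 1.02), Dppa3 (641 against 2.63) and Dppa4 (974 against 4.86) of early embryo and pluripotent cells, the testis ADP/ATP carrier Slc25a31 (407 against 1.58), the intercellular bridge gene Tex14 (974 against 5.05) and Nlrp4f (133 against 0.344). All 12 were thus genes of germ cells or the early embryo.

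These 12 split by their level in ovary germ cells. Dazl (1076 SPM), Stk31 (1441), Mov10l1 (790.2), Slc25a31 (453) and Tex14 (429.6) were also high there. Dppa4 (12.7 SPM), Morc1 (18.8), Nlrp4f (3.39) and Rbmy1a1 (0) were at a small share of their testis level. Asz1 (191 SPM), Lin28a (55.5) and Dppa3 (34.6) lay between.

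At the other end stood the globins, carriers of oxygen in red cells. Hba-a2 read 13079 SPM in testis somatic and 106 in testis germ cells, and Hbb-b1 read 14926 against 168. Hba-a1, Hbb-b2 and Beta-s gave nearly the same values as these copies, since near-identical genes share reads and their split is uncertain. The embryonic globin Hbb-y read 134 against 0.695 SPM (192-fold, 122 to 337). Among the remaining genes of the first 12 on this side, the transcription factor Tcf21, known in gonadal stroma, read 242 against 1.49 SPM (163-fold, 118 to 231). The matrix genes Svep1 (344 against 2.57 SPM), Fbn1 (2398 against 27.1), Islr (310.4 against 2.47) and Olfml3 (668 against 6.94), together with Col1a2 and the lysozyme gene Lyz2 of macrophages (99.1 against 0.558), completed it.

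**Figure D2:**
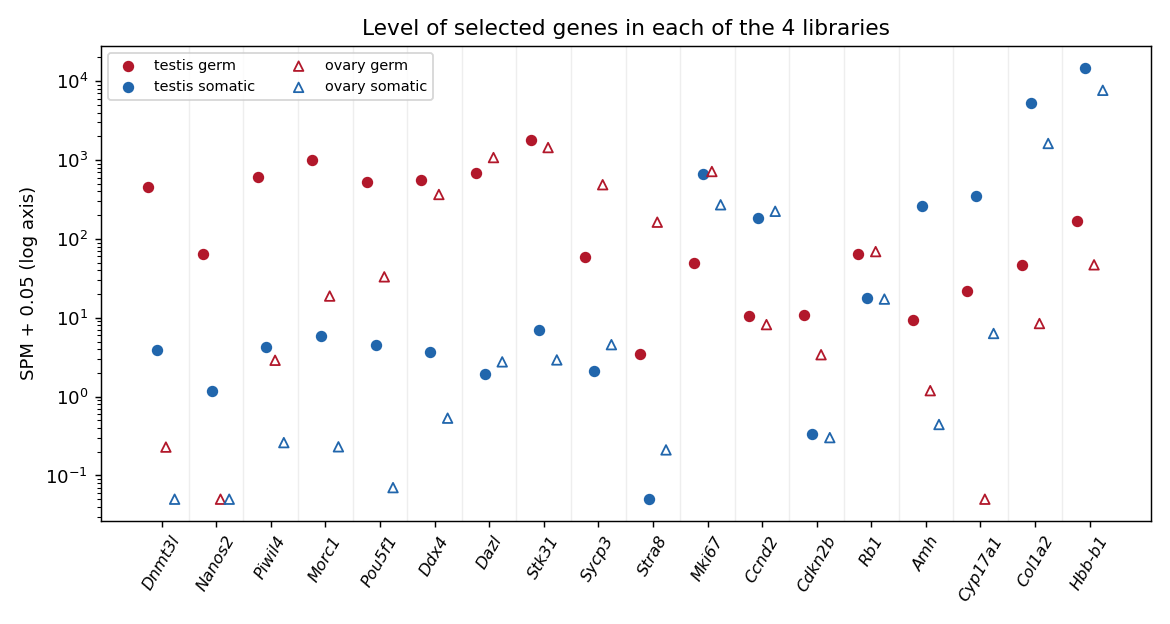
Signal of selected genes in the 4 libraries (y axis, SPM + 0.05 on a log scale, 1 point per library). Germ genes shared by both sexes such as Ddx4 lie high in both germ libraries, Dnmt3l lies high in testis germ cells alone among the 4, and Amh and Col1a2 lie high in testis somatic cells.

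Among 15 core genes of the germ lineage, 14 were higher in germ cells and none in somatic cells, against 14.1% and 16.8% of all genes tested. Their median log2 ratio was 6.43. Dnd1, which protects germ cell mRNAs, read 252 against 3.31 SPM (76.1-fold, 59.0 to 101). Nanos3, a translation repressor needed for germ cell survival, read 23.8 against 1.005 SPM, and Mael, a piRNA pathway gene, 972 against 7.83. The specification factors were called as well, with Prdm1 at 13.8 against 0.707 SPM, Prdm14 at 6.94 against 0.400 and Tfap2c at 19 against 0.09303. Kit, the receptor for stem cell factor, was the exception at 31.4 SPM in germ and 34.0 SPM in somatic cells (log2 ratio -0.11, and 0.03 with upper-quartile scaling). Kit differed little between the 4 libraries, at 47.2 SPM in ovary germ and 40.2 in ovary somatic cells.

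Promoter sequence did not enter the choice of lists and was looked at next. RefSeq promoter windows (GRCm38.p6, 250 bases before to 50 after the start) were matched by symbol for 61 of the 83 measured genes of the germ core, prospermatogonial, piRNA and meiosis lists. The palindromic E-box CACGTG, which reads the same on both strands, was in 17 of the 61 (27.9%), and all 17 of these genes were called higher in germ cells, as were 32 of the 44 without it. It was in 7.24% of 27025 promoters in the RefSeq table, in 10.6% of 10040 tested genes with an entry, in 12.04% of the 1404 called higher in germ cells, and in 6.42% of those called higher in somatic cells. It was chosen for display after its shares had been seen. Other motifs were searched on both strands in the same windows. The E2F motif GCGGGAA was found in 16.4% of the 61 germ list promoters and in 8.904% of the promoters of tested genes. For CCAAT the shares were 49.2% and 39.5%. The TATA box, spelled TATAAA, was found in 11.5% of the germ list promoters and in 7.04% of the tested ones. The GATA motif AGATAA was found in 4.92% and 5.94% of these promoters, respectively. The MYB motif CAACTG was found in 11.5% and 10.4%. The general E-box CANNTG, whose matches include those of the E-box above and of the MYB motif, was found in 77.05% of the germ list promoters and 62.9% of the tested ones. The AP-1 motif TGANTCA was found in 9.84% and 4.39%. The CRE motif TGACGTCA was found in none of the 61 and in 3.24% of the tested ones, and the SF-1 motif CAAGGTCA was found in 1.64% and 0.926%. A match is a description of the letters and not a binding site. The 150 bases before the start are printed 5′ to 3′ on the gene's strand for genes of different roles, with each E-box in capitals: the helicase Ddx4 (chr13:112652311-112652460, minus strand), Stk31 (chr6:49395389-49395538, plus), the synaptonemal complex gene Sycp3 (chr10:88459437-88459586, plus), the piRNA tudor gene Tdrd1 (chr19:56826059-56826208, plus), the meiotic chromosome axis gene Hormad1 (chr3:95559527-95559676, plus) and the carrier Slc25a31 (chr3:40708721-40708870, plus). Dazl (chr17:50293621-50293770, minus) and the stromal Col1a2 (chr6:4505468-4505617, plus) are shown as promoters without it in these bases.
Ddx4: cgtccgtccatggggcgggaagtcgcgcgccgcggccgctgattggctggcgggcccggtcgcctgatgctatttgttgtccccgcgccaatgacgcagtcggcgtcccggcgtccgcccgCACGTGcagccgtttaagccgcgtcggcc
Stk31: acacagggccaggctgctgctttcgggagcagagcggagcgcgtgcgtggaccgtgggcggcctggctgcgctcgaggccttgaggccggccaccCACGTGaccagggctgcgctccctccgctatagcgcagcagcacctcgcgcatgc
Sycp3: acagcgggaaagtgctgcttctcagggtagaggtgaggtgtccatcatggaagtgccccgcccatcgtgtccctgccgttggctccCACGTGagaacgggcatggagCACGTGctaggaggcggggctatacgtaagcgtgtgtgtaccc
Tdrd1: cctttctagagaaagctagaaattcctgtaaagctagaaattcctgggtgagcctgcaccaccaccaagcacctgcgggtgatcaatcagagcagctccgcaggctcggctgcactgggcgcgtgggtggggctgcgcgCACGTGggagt
Hormad1: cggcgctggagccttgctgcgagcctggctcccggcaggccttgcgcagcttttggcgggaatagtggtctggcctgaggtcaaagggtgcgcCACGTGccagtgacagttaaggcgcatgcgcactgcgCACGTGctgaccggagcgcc
Slc25a31: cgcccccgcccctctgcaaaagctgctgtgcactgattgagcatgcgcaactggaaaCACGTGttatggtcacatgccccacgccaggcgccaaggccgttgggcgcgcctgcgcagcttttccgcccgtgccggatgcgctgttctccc
Dazl: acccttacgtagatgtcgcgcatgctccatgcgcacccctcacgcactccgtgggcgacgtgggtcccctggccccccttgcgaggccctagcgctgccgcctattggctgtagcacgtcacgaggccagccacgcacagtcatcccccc
Col1a2: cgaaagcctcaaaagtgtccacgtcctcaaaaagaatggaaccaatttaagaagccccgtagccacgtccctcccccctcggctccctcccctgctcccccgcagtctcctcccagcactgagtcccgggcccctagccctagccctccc
The E-box began 29 bases before the start in Ddx4, 55 in Stk31, 11 in Tdrd1 and 93 in Slc25a31. Sycp3 and Hormad1 each held it at 2 places, beginning 64 and 43 bases before the start in Sycp3 and 57 and 20 bases before it in Hormad1.

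Promoter CpG content was alike in both groups of called genes. A CpG observed-to-expected ratio of 0.6 or more was found in 56.2% of the promoters of genes called in germ cells and 55.1% of those called in somatic cells, against 80.2% of promoters of genes with no call. Among genes under 5 SPM in both testis libraries it was 14.6%. The share was thus lower for calls of either fraction than for tested genes with no call.

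Of 20 genes listed for the piRNA pathway and transposon silencing, 19 reached 5 SPM. Among these, 18 were higher in germ cells and none in somatic cells, against 14.1% and 16.8% of all genes tested. The median log2 ratio of the list was 6.12. Piwil2, the PIWI protein of the cytoplasmic amplification step, read 1546 SPM in testis germ and 12.9 in testis somatic cells (119.6-fold, 105 to 137), with 287 in ovary germ and 3.21 in ovary somatic cells. Piwil4, the nuclear PIWI protein that directs DNA methylation, read 608, 4.17, 2.84 and 0.211 SPM in the same order (146-fold in the testis, 116 to 187). Piwil2 was thus present in germ cells of both sexes, and Piwil4 was high in those of the testis alone among the 4 libraries. Piwil1, which acts in later spermatogenesis, read 34.3 against 0.223 SPM. The scaffold gene Tdrd1 read 652 against 4.60 SPM (142-fold, 114 to 178), the helicase gene Tdrd9 1436 against 15.1, the chaperone partner Fkbp6 753 against 6.81 and the cofactor Gtsf1 162 against 1.31. Ddx39 was the tested member without a call, at 213 against 121 SPM.

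**Figure D3:**
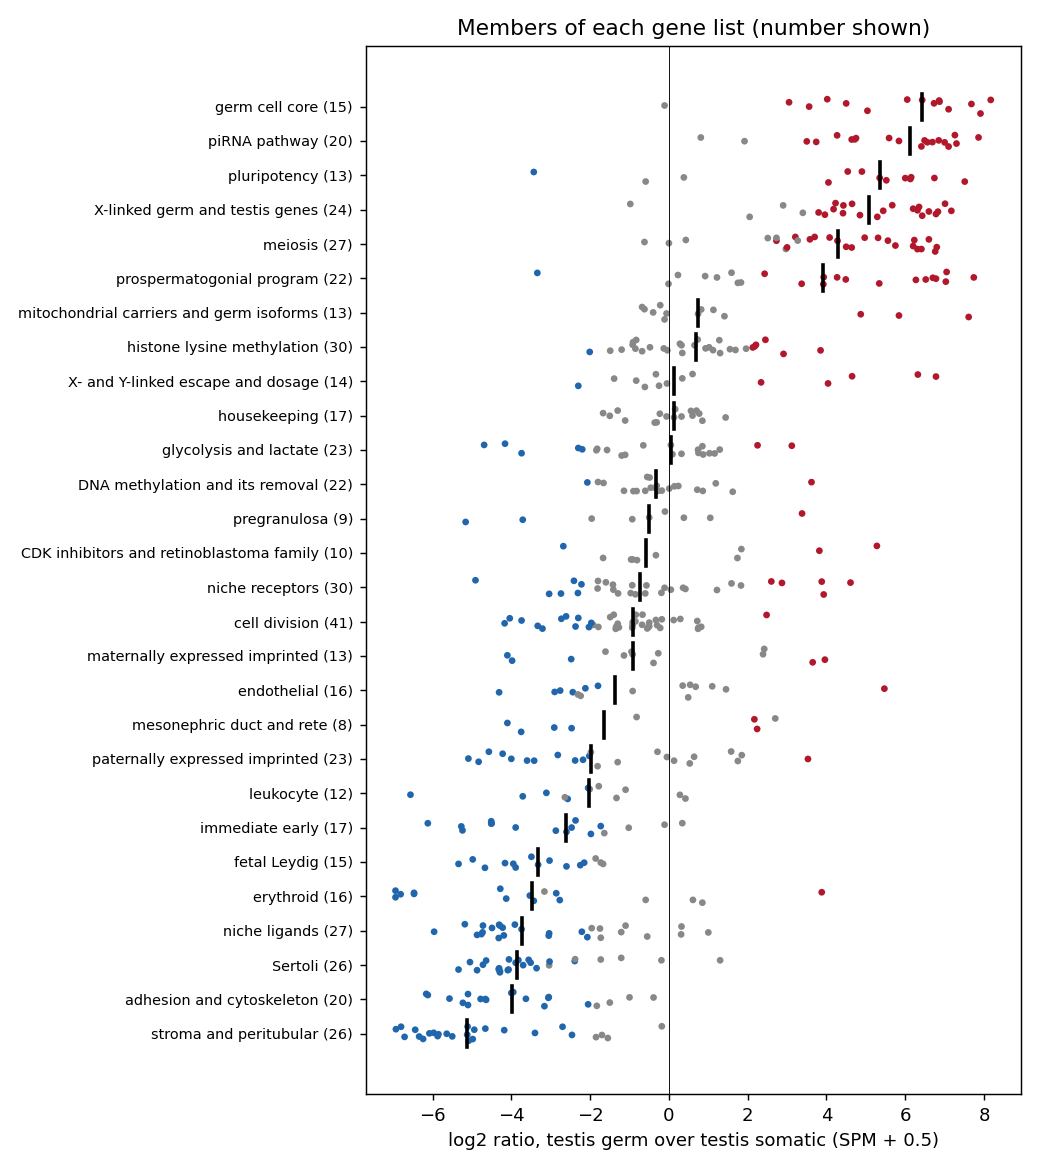
Log2 ratio of testis germ over testis somatic SPM (x axis) for the members of each gene list (rows), with 1 point per gene and the median marked. Germ core, piRNA, pluripotency and meiosis genes lie to the right (medians 6.43, 6.12, 5.35 and 4.28), stromal and Sertoli genes to the left (-5.12 and -3.85), and housekeeping genes near 0 (0.13).

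Genes listed for arrested prospermatogonia were mostly on the germ side, where 14.1% of all tested genes were called, against 16.8% on the somatic side. The list was drawn up with earlier results of these data known, so its counts and medians are descriptions. Of 22 measured, 20 reached 5 SPM, of which 14 were higher in germ cells and 1, the ERK phosphatase gene Dusp6 (13.1 against 138 SPM), in somatic cells. Their median log2 ratio was 3.92 in the testis, and 0.12 between ovary germ and ovary somatic cells. Nanos2, the RNA-binding protein that blocks meiosis in male germ cells, read 64.9 SPM in testis germ and 1.12 in testis somatic cells (58.1-fold, 36.8 to 93.6) and 0 in both ovary libraries. Egr4 read 14.7 against 0.502 SPM, and the zinc finger gene Sall4 159.8 against 1.57. Genes of the Nodal pathway, which works within fetal male germ cells, were low. Nodal itself read 9.14 SPM against 0 (at least 53.5-fold higher) and its antagonist Lefty1 14.9 against 2.34 SPM (6.34-fold, 4.61 to 9.02), whereas Lefty2 read 7.42 against 3.68 SPM and the coreceptor Tdgf1 1.01 against 0.

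Pluripotency genes were still transcribed in the germ fraction. Of 12 genes at 5 SPM, 10 were higher in germ cells and 1 in somatic cells, against 14.1% and 16.8% of all genes tested. Pou5f1, on whose promoter the sort rested, read 531 SPM in testis germ, 4.49 in testis somatic and 33.0 in ovary germ cells. Sox2 read 25.02 against 0.0558 SPM, Nanog 11.5 against 0.223 (51.4-fold, 19.5 to 186), Utf1 64.6 against 0.428, Zfp42 19.9 against 0 and Dppa5a 45.8 against 0.223. Nanog in ovary germ cells stood at 0.697 SPM. The member on the somatic side was Tbx3, a T-box factor with roles outside pluripotency, at 0.724 against 12.7 SPM.

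Meiotic genes were also called in these non-meiotic cells, at levels below those of the ovary. Of 28 measured, 23 reached 5 SPM and 20 were higher in germ cells, against 14.1% of all genes tested. Their median log2 ratio was 4.28 in the testis and 7.02 in the ovary. The synaptonemal complex gene Sycp1 read 86.3 SPM in testis germ and 0.595 in testis somatic cells (145-fold, 82.4 to 317), and 844 in ovary germ cells. Sycp3, of the chromosome axis, read 58.3, 2.09, 487 and 4.51 SPM in the 4 libraries. Hormad1 read 74.0 against 0.167 SPM, the meiotic cohesin genes Rec8 26.5 against 0.363 and Smc1b 80.9 against 0.456. For double-strand break formation and repair, Spo11 read 17.5 against 0.223 SPM and Dmc1 14.3 against 1.72 (8.28-fold, 5.75 to 12.6). Stra8, the retinoic acid target that starts meiosis, read 3.41 SPM in testis germ cells and 163 in ovary germ cells, under the minimum for a call in the testis. The recombination hotspot factor Prdm9 read 5.15 against 1.79 SPM and was not called, against 331 in ovary germ cells.

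DNA methylation genes of a list without Dnmt3l did not set the germ fraction apart as a group. Of 21 genes at 5 SPM, 1 was called in each direction, against 14.1% germ and 16.8% somatic calls among all tested genes. The median log2 ratio was -0.33. Dnmt3a, a de novo methyltransferase, read 552 SPM in testis germ, 467 in testis somatic, 49.8 in ovary germ and 557 in ovary somatic cells. Its partner Dnmt3l was thus far apart between the testis fractions, while Dnmt3a differed by 1.18-fold (1.15 to 1.21). Dnmt3b read 38.2 against 16.5 SPM and the maintenance enzyme Dnmt1 346 against 420.0. Uhrf1, which brings Dnmt1 to replicating DNA, was on the somatic side at 25.4 against 108 SPM (4.25-fold, 3.88 to 4.66), a call lost with upper-quartile scaling (3.86-fold). The germ call was Ctcfl, a testis paralogue of the insulator protein CTCF, at 8.75 against 0.251 SPM.

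Among 30 genes for histone lysine methylation, 6 were higher in germ cells and 1 in somatic cells, a share of germ calls not far from the 14.1% of all tested genes. Kdm1b, an H3K4 demethylase linked to germline DNA methylation, read 651 against 44.6 SPM (14.6-fold, 13.6 to 15.7). The others were Eed of the Polycomb complex (90.6 against 11.6 SPM), Ezh1 (253 against 46.0), Wdr5 of H3K4 methyltransferase complexes (485 against 105), the H3K9 methyltransferase gene Ehmt2 (1511 against 333) and the H3K4 demethylase gene Kdm1a (798 against 182). Ezh2, the Polycomb methyltransferase prominent in dividing cells, was on the somatic side at 29.0 against 118 SPM (4.08-fold, 3.74 to 4.44), a call lost with upper-quartile scaling (3.703-fold). Ezh1 and Ezh2, alternative enzymes of the same complex, thus lay on opposite sides. Kdm1a, Ehmt2, Wdr5 and Ezh2 lay between 4.08-fold and 4.63-fold, close to the 4-fold limit.

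Most cell division genes were not called. Of 41, 11 were higher in somatic cells, 1 in germ cells and 29 neither, against 16.8% somatic and 14.1% germ calls among all tested genes, and the median log2 ratio was -0.92. Mki67, a protein of cycling cells, read 49.7 SPM in testis germ, 670.1 in testis somatic, 716 in ovary germ and 271 in ovary somatic cells (13.5-fold higher in testis somatic than germ cells, 12.7 to 14.3). Testis germ cells were the lowest of the 4 libraries for Mki67. Cyclin D2 (Ccnd2) read 10.6 against 183 SPM, the S-phase repressor E2f8 0.871 against 24.1, Cdk1 41.1 against 214 and Aurkb 12.7 against 80.0. Other genes of the list differed less: Top2a read 625 against 889 SPM, Mcm2 97.3 against 186, Pcna 38.4 against 95.5, and Ccnb1 129 against 73.0. The spindle checkpoint gene Bub1 went the other way, at 245 against 43.3 SPM (5.65-fold higher in germ cells, 5.24 to 6.10).

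Inhibitors of the cycle did not share a direction. Of 10 genes of the CDK inhibitor and retinoblastoma families, 2 were higher in germ cells and 1 in somatic cells. With 14.1% germ and 16.8% somatic calls among all genes tested, counts this small do not set the group apart. Cdkn2a, whose products restrain CDK4 and MDM2, read 18.96 SPM in germ cells against 0 (at least 111-fold higher), and its neighbour Cdkn2b read 10.7 against 0.288 SPM (37.0-fold, 15.9 to 117). Cdkn2a was nearly as high in ovary germ cells (18.7 SPM) and at 0 in ovary somatic cells. Cdkn2c was on the somatic side at 1.14 against 10.03 SPM. Cdkn1b, the p27 gene linked to prospermatogonial arrest, read 29.8 against 52.6 SPM and Cdkn1c 54.0 against 102, neither called. The retinoblastoma gene Rb1 read 65.1 against 17.8 SPM, 3.66-fold higher in germ cells (3.24 to 4.14) and under the limit except with upper-quartile scaling (4.03-fold), and its relative Rbl2 read 20.6 against 66.7.

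Replication-dependent histone genes, whose mRNAs lack a poly(A) tail and are made in S phase, lay on the somatic side in most members. Of 67 measured and 62 at 5 SPM, 54 were higher in somatic and none in germ cells, against 16.8% and 14.1% of all genes tested. The median log2 ratio of these genes was -2.94. Their summed signal was 1443 SPM in testis germ, 11891 in testis somatic, 14935 in ovary germ and 6199 in ovary somatic cells, so testis germ cells were the lowest of the 4. The linker histone gene Hist1h1b read 11.5 against 558 SPM and Hist1h1a 48.2 against 1374 (28.5-fold, 26.9 to 30.2). Histone genes are near-identical copies, so values of single members are uncertain. This family and the ones named below were grouped by symbol after the values had been seen.

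**Figure D4:**
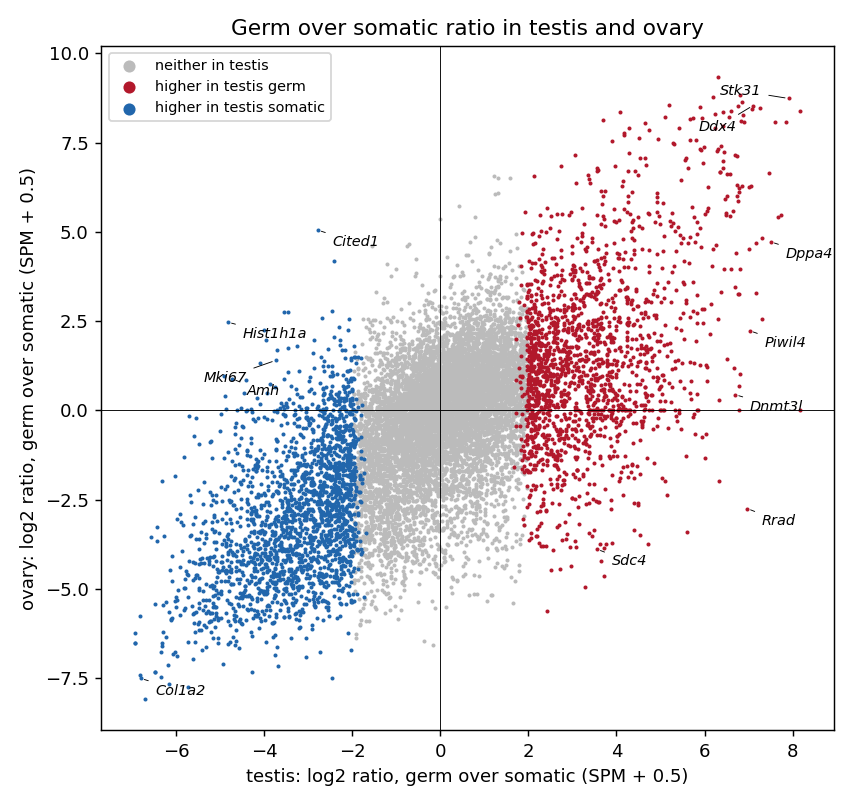
Log2 ratio of germ over somatic cells (SPM + 0.5) in the testis (x axis) and in the ovary (y axis), 1 point per gene. Ddx4 and Stk31 lie high on both axes, Dnmt3l and Piwil4 high on the testis axis (6.70 and 7.03) and lower on the ovary axis (0.44 and 2.23), and Mki67 below 0 in the testis (-3.74) and above 0 in the ovary (1.40).

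The ovary pair, which shares no library with the testis pair, was set beside it to count shared calls. A gene without a call in the ovary, as for 1106 testis germ calls, can lie just under a limit, and the difference between the sexes was not tested. Of the 1784 genes called higher in testis germ cells, 602 (33.7%) were also called higher in ovary germ cells, which was 42.9% of the 1403 ovary germ calls. Among all genes tested in the ovary, 11.4% were called higher in germ and 24.6% in somatic cells. Of the 2119 testis somatic calls, 1417 (66.9%) were also ovary somatic calls, 47.0% of the 3018 there. Opposite calls were made for 76 testis germ and 10 testis somatic calls. Rrad, a small GTPase gene, read 352 SPM in testis germ, 2.32 in testis somatic, 2.00 in ovary germ and 16.4 in ovary somatic cells. Sdc4, a heparan sulfate proteoglycan gene, read 2484, 210.1, 31.6 and 477 SPM, and the tetraspanin gene Tspan8 161, 2.81, 0.518 and 10.3. In each of these the testis germ library was the highest of the 4 and the ovary germ library the lowest. Cited1, a transcriptional coregulator, was higher in the somatic library of the testis and in the germ library of the ovary, at 2.07, 17.2, 52.0 and 1.09 SPM. Rrad, Sdc4, Tspan8 and Cited1 were picked after their values had been seen.

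On the sex chromosomes, calls made up a larger share of the tested genes than on the autosomes. Of 477 X-linked genes tested, 23.3% were higher in germ and 23.5% in somatic cells, against 13.7% and 16.5% of 12143 autosomal genes. Of 21 X-linked germ and testis genes at 5 SPM, 20 were higher in germ cells. The RNA export gene Nxf2 read 999 against 6.44 SPM (155-fold, 129 to 189), the deubiquitinase gene Usp26 148 against 0.651, Tex11 142 against 0.968 and the TFIID paralogue Taf7l 76.2 against 0.391. Akap4, known from the sperm tail, read 24.98 SPM against 0. Zfx was the member without a call, at 97.8 against 194 SPM.

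Of 9 Y-linked genes tested, 6 were higher in germ cells and none in somatic cells, against 14.1% and 16.8% of all genes tested. Besides Rbmy1a1 they were the ubiquitin activating gene Ube1y1 (581 against 6.75 SPM, 86.0-fold, 71.7 to 104), Usp9y (132 against 0.707), Zfy1 (12.1 against 0), Zfy2 (7.74 against 0) and the translation factor gene Eif2s3y (191 against 37.5). Ddx3y (89.6 against 113 SPM), Kdm5d (46.8 against 71.5) and Uty (52.7 against 41.7) were at similar levels in both testis fractions. The last 3 read at most 0.0201 SPM in the ovary libraries. Among 14 X- and Y-linked genes picked for dosage, 5 Y-linked ones were higher in germ cells and 1, X-linked Pgk1, in somatic cells.

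On the somatic side, Sertoli genes were higher in somatic cells for 20 of 23 at 5 SPM and in germ cells for none (median log2 ratio -3.85). Over all genes tested, the shares were 16.8% somatic and 14.1% germ calls. The cord signal Dhh read 2.65 SPM in germ and 91.6 in somatic cells (34.6-fold, 27.0 to 44.9), the retinoic acid degrading enzyme Cyp26b1 2.21 against 53.5, the protease inhibitor Cst9 9.76 against 172, and the Sertoli cell fate factor Sox9 2.91 against 17.3. The gonadal transcription factors Nr5a1 (7.02 against 303 SPM), Gata4 (5.81 against 209) and Wt1 (3.61 against 102) were also somatic, and high in ovary somatic cells too (288, 287 and 379 SPM). Dmrt1, which is made in both Sertoli and germ cells, was the highest of the list on the germ side at 38.8 against 15.5 SPM, with no call.

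Fetal Leydig genes were higher in somatic cells for 12 of 15 and in germ cells for none (median log2 ratio -3.32). Beside this count and the stromal count below stand 16.8% somatic and 14.1% germ calls among all genes tested. The steroid enzymes Cyp11a1 (9.51 against 148 SPM, 15.6-fold, 13.6 to 17.9), Cyp17a1 (22.03 against 347) and Hsd3b1 (9.01 against 169.8), and the testis descent hormone Insl3 (0.606 against 8.54), lay 14.1-fold to 18.8-fold apart. Star, the cholesterol carrier, read 26.0 against 87.7 SPM and was not called. Stromal and peritubular genes were higher in somatic cells for 22 of 24 (median log2 ratio -5.12), among them Col3a1 (70.9 against 5412 SPM), Col1a1 (18.9 against 1310.2), Acta2, the smooth muscle actin (8.77 against 748), the orphan receptor Nr2f2 (1.49 against 116) and Pdgfra, a growth factor receptor (75.1 against 2324).

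Vessel and blood genes were mostly on the somatic side, with exceptions. For every count that follows, the shares over all genes tested were 16.8% somatic and 14.1% germ calls. Of 12 endothelial genes, 6 were higher in somatic cells and 1 in germ cells, such as the VEGF receptor Kdr (2.98 against 68.8 SPM) and the junction cadherin Cdh5 (14.03 against 62.4). Pecam1 (17.0 against 13.2 SPM) and Tek (20.1 against 14.2) were not called. Vwf, a clotting factor of endothelium and platelets, was on the germ side at 288 SPM, against 6.0 in testis somatic, 1.30 in ovary germ and 2.10 in ovary somatic cells. Leukocyte genes were somatic for 5 of 7 and erythroid genes for 11 of 13. Csf1r, the macrophage receptor, read 1.59 against 17.6 SPM, and Alas2, of haem synthesis, 35.9 against 390.4. The blood group gene Rhd was on the germ side at 67.5 against 4.13 SPM, with the defining erythroid markers at 1.09% of their somatic sum. Of 7 mesonephric duct and rete genes, 4 were somatic (Krt8 at 2.04 against 18.6 SPM) and 2 were on the germ side, the renal and duct factor Pax8 (9.69 against 1.66) and Wfdc2 (5.95 against 0.9303). Of 8 pregranulosa genes, 2 were somatic (Wnt4 at 1.77 against 80.9 SPM) and 1, the Wnt effector Lef1, was on the germ side (18.2 against 1.29).

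Ligands of the niche lay on the somatic side, and receptors on neither. Of 25 ligand and signal genes, 18 were higher in somatic cells and none in germ cells. Kitl, the ligand of Kit, read 6.04 against 98.1 SPM (16.2-fold, 13.8 to 19.4), the chemokine Cxcl12 7.52 against 501, Gdnf 1.34 against 24.01, the activin subunit Inhba 0.254 against 26.9 and Igf1 12.02 against 102. Fgf9 (2.33 against 8.90 SPM) and Bmp4 (7.88 against 6.27) were not called, although Fgf9 passed with TMM scaling (4.06-fold) and without the globins (4.101-fold). Of 29 receptor and adhesion genes, 5 were higher in germ and 6 in somatic cells, near the shares of all tested genes (14.1% and 16.8%). The germ calls were E-cadherin (Cdh1, 56.9 against 1.85 SPM), the adhesion molecule Epcam (164 against 21.98), Ret, a receptor component for Gdnf (27.3 against 1.33), the BMP receptor Bmpr1b (23.4 against 1.13) and the Cxcl12 receptor Cxcr4 (29.9 against 4.49). Gfra1, the other Gdnf receptor component, read 6.71 against 2.60 SPM and had no call. The somatic calls were Fgfr4 (0.245 against 21.9 SPM), Fgfr2 (11.98 against 102), Notch1 (15.3 against 105), Notch2 (113 against 603), Insr (30.3 against 152) and Ephb6 (14.3 against 68.5).

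Immediate early genes, which respond within minutes to stimuli including tissue dissociation, were higher in somatic cells for 13 of 17 and in germ cells for none. For this count and the adhesion count below, all genes tested gave 16.8% somatic and 14.1% germ calls. Fos read 6.96 SPM in testis germ, 282 in testis somatic, 13.7 in ovary germ and 726 in ovary somatic cells. Egr1 read 3.60, 93.2, 7.45 and 131 SPM and Cyr61 3.14, 252, 2.98 and 204. Both somatic libraries were high for all 3 genes, and the part of dissociation in these or other somatic calls was not tested. Adhesion and cytoskeleton genes were somatic for 16 of 20, with the intermediate filament gene Vim at 28.2 against 1365 SPM, the matrix protein Sparc at 34.1 against 1189 and Emp1 at 4.63 against 366.

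Imprinted genes, which are expressed from 1 parental copy and whose marks are erased in fetal germ cells, were mixed. Of 21 paternally expressed genes, 11 were higher in somatic cells and 1 in germ cells, against 16.8% and 14.1% of all genes tested. Peg3 read 116 against 1417 SPM (12.2-fold, 11.7 to 12.7), Mest 24.6 against 593, Dlk1 8.74 against 261, Plagl1 12.01 against 426, Ndn 13.9 against 74.8 and Igf2 15.7 against 301. The germ call was Sfmbt2, a Polycomb-related gene, at 179.8 against 15.1 SPM. Of 10 maternally expressed genes, Cd81 (27.9 against 445 SPM), Grb10 (239 against 1337) and Osbpl5 (5.34 against 99.4) were somatic. Phlda2 (7.29 against 0) and Slc22a18 (10.1 against 0.344) were higher in germ cells.

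Metabolic genes differed member by member. Of 23 glycolysis and lactate genes, 2 were higher in germ and 5 in somatic cells, beside 14.1% and 16.8% of all genes tested. Their median log2 ratio was 0.05. The neuronal-type glucose transporter Slc2a3 read 559.7 against 63.8 SPM (8.77-fold, 8.25 to 9.33) and the aldolase gene Aldoc 31.0 against 6.13. On the somatic side were the lactate exporter Slc16a3 (3.38 against 68.9 SPM), Pfkl (10.9 against 152), Tpi1 (20.1 against 529.6), Pgk1 (22.4 against 112) and Ldhb (17.5 against 82.1). Pgk1, Tpi1 and other glycolysis genes have processed copies in the genome that can share reads, so their values are uncertain. In mitochondria, the germ forms Slc25a31, the cytochrome oxidase subunit gene Cox7b2 (28.2 against 0 SPM) and the testis cytochrome c gene Cyct (29.7 against 0.530) were called in germ cells, and none of 12 in somatic cells. The general ADP/ATP carrier Slc25a4 was at 288 against 336 SPM.

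Germ calls were also grouped by gene family, with 14.1% germ and 16.8% somatic calls over all genes tested as the background. Of 17 Nlrp genes measured, the 7 that reached 5 SPM were higher in germ cells, with Nlrp4f above and Nlrp4c at 213 against 1.70 SPM, and so were all 9 genes of the X-linked Xlr family, with Xlr5a at 209 against 1.34. Members of both families are near-identical copies and the split of reads between them is uncertain. Subunits of the cytosolic chaperonin, which folds actin and tubulin, were higher in germ cells for 4 of 8 and in somatic cells for none (median log2 ratio 1.9), and summed to 16654 against 3949 SPM. Cct8 read 3043 against 371 SPM (8.20-fold, 8.0 to 8.42). The heat shock gene Hsp90aa1 read 3486 against 292 SPM, but heat shock genes went both ways. Of 15 grouped by symbol, 3 were higher in germ and 2 in somatic cells. The median log2 ratio of these 15 was 0.50, with a range from -3.56 (Hspa12a) to 4.27 (Hspa4l). TFIID subunits (TAF genes) were higher in germ cells for 8 of 19. Among 36 proteasome and 77 ribosomal protein genes, the largest ratios belonged to the testis forms Psma8 (71.8 against 1.33 SPM) and Rpl39l (154 against 1.04), while the family medians were 0.82 and 0.53.

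Somatic calls were made for 9 of 39 Hox genes measured, the only 9 that reached 5 SPM, and for 24 of 43 collagens, of which 37 reached it. The shares over all genes tested were 16.8% somatic and 14.1% germ calls. Hoxd9 read 0.626 against 62.5 SPM and the basement membrane collagen Col4a1 30.1 against 1554. In the germ fraction, 5 of the 37 collagens were called higher, led by Col22a1 at 76.0 against 3.67 SPM. This count is near the germ share of all genes tested and does not set collagens apart on that side. Housekeeping genes gave no call in 17, with a median log2 ratio of 0.13 and a range from -1.67 (Gusb) to 1.44 (Tbp).

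**Figure D5:**
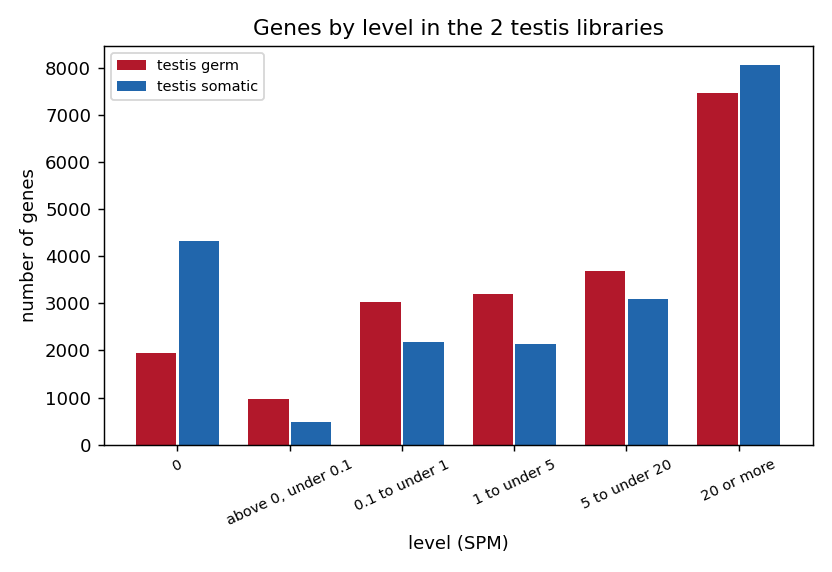
Number of genes (y axis) in each class of signal (x axis, SPM) in testis germ and testis somatic cells. Testis germ cells had fewer genes at 0 (1942 against 4333) and more above 0 but under 1 SPM (4000 against 2665), and somatic cells had more at 20 SPM or above (8067 against 7479).

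More genes gave signal in germ than in somatic cells. After the germ library was drawn down to the depth of the somatic library, 18007 genes were above 0 in germ cells and 15856 in somatic cells. As listed, without drawing down, the excess in germ cells was 2391 genes above 0 and 1056 genes at 1 SPM or more, where 14357 germ and 13301 somatic genes stood. At 5 SPM the libraries were level, with 11165 and 11170 genes. Much of the excess thus lay at low levels. Olfactory receptor genes, which act in the nose, are an example: none of 1110 reached 5 SPM, and 823 were listed at 0 in germ cells against 1072 in somatic cells. Whether such low signal comes from transcripts of these genes or from other RNA or DNA in the library was not tested.

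Per kilobase of listed length, where levels can be compared between genes, the germ library was led by translation and folding genes and the somatic library by globins. Eef1a1, the translation elongation factor, stood at 7584 SPM per kilobase in germ and 6080.0 in somatic cells. Of the germ genes above, Dppa4 stood at 632 SPM per kilobase, Stk31 at 555, Pou5f1 at 367, Piwil2 at 313, Dnmt3l at 239, Dazl at 235, Piwil4 at 229 and Ddx4 at 196. Dnmt3l was thus at a level per length like those of Dazl and Piwil4. In somatic cells, Hbb-b2 reached 24342 SPM per kilobase, Col1a2 1016 and Amh 154.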

How the data were processed

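RNA was measured in 4 sorted fractions of fetal gonads at 15.5 dpc, 1 library per group. Tools listed in the submitters' processing notes are CASAVA 1.9, TopHat 1.2.0 and edgeR, and the build is mm9; what each was used for is not said there. For the counting program, the annotation and strand use, nothing was given in the sources used here. The deposited values are a whole-number read signal per gene that the file headers call counts, but low values lie on a spacing of 4.105 (testis germ and ovary somatic), 6.115 (testis somatic) or 6.065 (ovary germ). Of low values, 43.2% to 54.2% fell on the spacing, against 15.0% to 23.3% by chance. The signal was treated as scaled by 1 factor per library, so no count model was used, and fragments were estimated as signal divided by spacing. Fragment estimates, floors and intervals cover counting error only, and PCR copies cannot be told from separate molecules.

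Of 20373 rows, 74 repeated a position and all values and were kept once. Signals were divided by library totals of 102, 107, 106 and 99.3 M (M, 1000000) in testis germ, testis somatic, ovary germ and ovary somatic cells and given per 1000000 (SPM). List medians used members at 1 SPM or more in either testis library. Fold intervals are exact conditional binomial intervals (Clopper-Pearson, 95%) on estimated fragments. Detection was compared after 100 random draws of the deeper library.

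Named genes were the 4 markers, the 12 with the largest log2 ratio in each direction at 20 SPM or more, key, extreme and opposed members of 28 lists, and the 5 of highest signal per library. Other list members shown, the families, the Y-linked genes, genes opposed between testis and ovary and levels per kilobase were chosen after their values were seen. All members and lists were chosen with earlier results of these data known. Of the list genes, 17 were not matched by symbol and were not used. Coordinates of genes are those of the files (mm9), and promoters are from RefSeq (GRCm38.p6), matched by symbol for 16068 genes. Computation used Python 3.11.15, numpy 2.4.6, pandas 2.3.3, scipy 1.17.1 and matplotlib 3.10.9, and the scripts were tested on simulated data.

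Alternatives were other scalings (TMM, upper quartile, totals without globins), minimum signals, fold limits, pseudocounts and keeping repeated rows.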

Additional observations from a re-analysis of the deposited data

Results flagged for a closer look

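Of the genes in the lists, 6 passed the size rule in opposite directions in the testis and the ovary. With 1 library per group, the difference between the sexes was not tested. Aldoc had a log2 ratio of germ over somatic of 2.25 in the testis and -3.71 in the ovary. Bmpr1b had 3.88 in the testis and -2.75 in the ovary. Cdkn2c was lower in testis germ cells (-2.68) and higher in ovary germ cells (2.59). Pax8, a mesonephric duct marker, had 2.24 and -3.25, at 9.69 SPM in testis germ and 8.32 SPM in ovary somatic cells. Rhd had 3.88 and -2.52. Zbtb16, a spermatogonial transcription factor, had 3.37 and -2.59.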

How the results depend on the processing

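Each group was 1 library, so no result has a replicate error. The number of genes higher in germ cells was 2767 with a minimum of 1 SPM, 1046 with a minimum of 20 SPM, 3572 with a minimum fold of 2 and 1095 with a minimum fold of 8, against 1784. The number higher in somatic cells was 3621 with a minimum fold of 2 and 1246 with a minimum fold of 8, against 2119. The excess of genes detected in germ cells was 1056 at 1 SPM or more and 2391 above 0, both as listed, against 2151 above 0 at equal depth. The minimums set by construction which genes count. Scaling moved the counts less, to 1688 germ and 2214 somatic genes with TMM (a shift of all log2 ratios by -0.08), 1987 and 1948 with the upper quartile (0.14) and 1681 and 2248 without the globins (-0.10). The germ share of all calls was 45.7%, and 52.9% with a minimum of 1 SPM, so which fraction held more calls turned with the minimum and with upper-quartile scaling (50.5%). The list members past the size rule in the list's direction numbered 253, and from 202 to 286 under the alternatives. No called gene of the lists changed its direction under the TMM and upper-quartile scalings and pseudocounts tried. Kit, which was not called, moved from -0.11 to 0.03 with the upper quartile, and Uhrf1 (3.86-fold) and Ezh2 (3.703-fold) then lost their calls. No paired analysis was possible because each group was 1 library.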
